A study of Mus musculus with 6 samples.

Results

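Perineuronal nets and the chondroitin sulfate proteoglycans that build them were followed here through 10 genes, out of 46078 genes counted in the series. The genes were given by symbol, with earlier results of these data known, and matched to the Ensembl identifiers of the count tables, and all 10 passed the filter on low counts that 15554 genes passed. They are the lecticans *Acan*, *Bcan*, *Ncan*, and *Vcan*, the link proteins *Hapln1* and *Hapln4*, the tenascin *Tnr*, and the core proteins *Cspg4*, *Cspg5*, and *Ptprz1*. Bulk RNA-Seq libraries came from 3 infarcts and 3 contralateral cortices from wild type C57BL/6J male mice, taken 7 weeks after stroke at a labelled age of 3 months. Stroke was induced with the DH model, in which permanent occlusion of the distal middle cerebral artery is followed by hypoxia, and the contralateral cortex is the matching region of the uninjured hemisphere of mice that also had a stroke. Infarcts were dissected by eye, no drug treatment is named in the sample labels, and the labels do not say which libraries came from the same mouse. The *p* values below therefore measure the spread between these samples. The libraries held 11943570 to 19933962 counts on genes.

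A perineuronal net is a lattice of extracellular matrix around the soma and proximal dendrites of certain neurons, above all parvalbumin interneurons. Its backbone is hyaluronan, to which lecticans bind through their N-terminal domain, link proteins lock that bond, and tenascin-R ties the C-terminal domains of several lecticans together. Lecticans carry chondroitin sulfate chains and are also produced by astrocytes and by oligodendrocyte precursors. After injury to the CNS, chondroitin sulfate proteoglycans are well known as part of the glial scar, where they restrain the regrowth of axons.

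Of the 10 genes, 6 were downregulated and 1 was upregulated in infarcts, with a fold change above 2 at an adjusted *p* under 0.05. Among all tested genes, 20.9% were downregulated, 25.7% were upregulated and 46.6% were called in either direction. The downregulated genes were *Ncan*, *Hapln1*, *Hapln4*, *Tnr*, *Cspg5*, and *Ptprz1*, the upregulated gene was *Acan*, and *Bcan*, *Vcan*, and *Cspg4* were not called. The median log2 fold change was -1.30 over the 10 genes and 0.03 over all tested genes. Without the fold change threshold, 9 of the 10 genes had an adjusted *p* under 0.05, compared with 65.0% of all tested genes. The 3 infarct values and the 3 contralateral values did not overlap for 9 of the 10 genes and for 72.3% of all tested genes. In 7 of these 9 genes every infarct value was lower (34.7% of all tested genes), and in *Acan* and *Vcan* every infarct value was higher (37.6% of all tested genes). In bulk tissue, fewer cells of a type and less RNA per cell cannot be told apart.

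**Figure D1:**
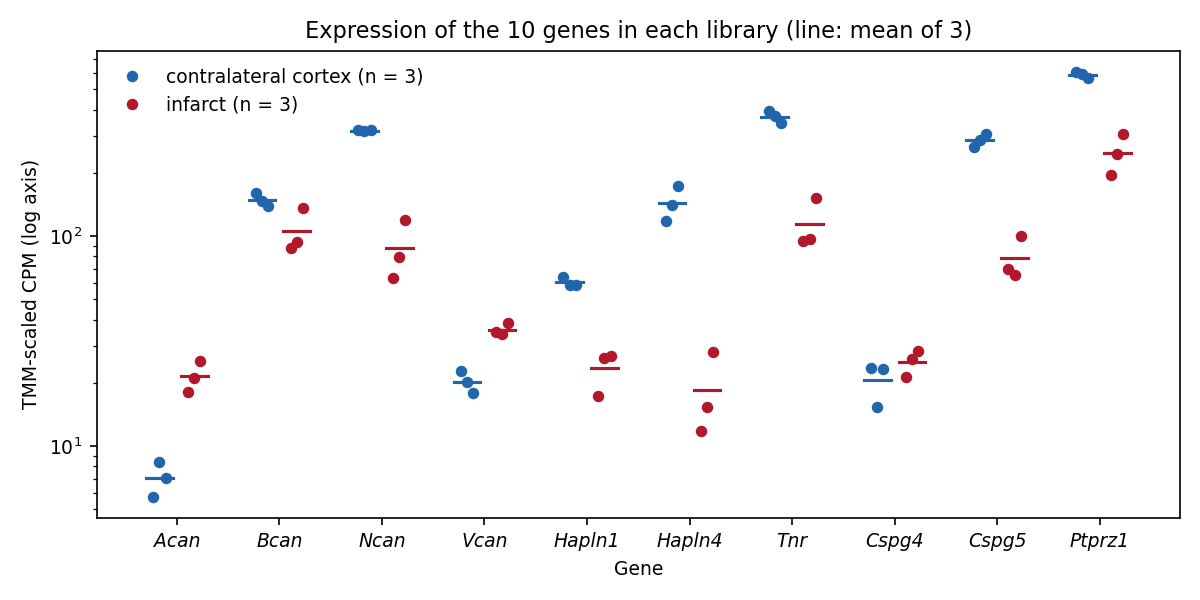
TMM-scaled CPM (log axis) of the 10 genes in each of the 3 contralateral (blue) and 3 infarct (red) libraries, with a line at the mean. *Acan* and *Vcan* lie higher in all infarcts, *Cspg4* overlaps between regions, and the other 7 genes lie lower in all infarcts.

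The regions were checked against lists of marker genes, since the infarct and the cortex hold different cells. Among all tested genes, for comparison with each list, 25.7% were upregulated and 20.9% downregulated. All 8 neuronal markers were downregulated, with a median log2 fold change of -3.07, and their summed expression was 606 to 1556 CPM (counts relative to library size, scaled with TMM) in infarcts and 8570 to 9189 CPM in the contralateral cortex. Of 10 genes listed for parvalbumin interneurons, not all of them confined to these cells, 9 were downregulated, with a median log2 fold change of -2.72. The change ranged from -3.94 for *Syt2* to -0.48 for *Tac1*, the gene that was not called. Of 9 astrocyte markers, 3 were upregulated and 1 was downregulated (2 without infarct 3, without contralateral cortex 1 or without contralateral cortex 2), from 4.81 for *Gfap* to -2.07 for *Slc1a2*, and their sum was 5656 to 8139 CPM in infarcts and 13970 to 14860 CPM in the contralateral cortex. That lower sum rested on *Slc1a2*, and the other 8 markers summed to 3280 to 4217 CPM in infarcts and 1863 to 2180 CPM in the contralateral cortex. Of 10 genes of oligodendrocyte precursors, 4 were upregulated and none was downregulated (1 without infarct 3), with a median of 0.30. All 7 tested fibroblast genes and 8 of 9 genes of microglia and macrophages were upregulated, as were 6 of the 8 tested genes of pericytes and smooth muscle. Of 8 oligodendrocyte genes 4 were upregulated (7 without infarct 1 or with library totals), as were 3 of 7 endothelial genes, and no gene of these 2 lists was downregulated. Log2 fold changes ran from -3.84 (*Snap25*) to -2.38 (*Tubb3*) for neurons, from 0.73 (*Mag*) to 2.36 (*Cldn11*) for oligodendrocytes, from 1.90 (*Pdgfra*) to 7.35 (*Col3a1*) for fibroblasts, from -0.20 (*P2ry12*) to 5.86 (*Cd68*) for microglia and macrophages and from -0.14 (*Flt1*) to 2.06 (*Cdh5*) for endothelium. No marker had 0 counts in all libraries of a region. The part of these cell types in the changes described below was not tested.

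Within infarcts, infarct 3 had the highest value for all 10 genes and infarct 1 the lowest value for 8 of them. The neuronal markers summed to 606, 871 and 1556 CPM in infarcts 1, 2 and 3, astrocyte markers to 5656, 6032 and 8139 CPM and oligodendrocyte markers to 4436, 5125 and 7122 CPM. Infarct 3 was highest in these 3 sums. It was lowest for fibroblasts (6609, 7463 and 6034 CPM) and for microglia and macrophages (1832, 1494 and 1482 CPM). The same held for pericytes and smooth muscle (1505, 1131 and 1057 CPM) and for endothelium (651, 487 and 466 CPM). Oligodendrocyte precursor genes summed to 638, 539 and 542 CPM. Of these sums *Pdgfra*, which also stands in the fibroblast list, made up 497, 355 and 298 CPM, and the rest was highest in infarct 3. The part of these cell types in the values of the 10 genes was not tested. Leaving out each library in turn, infarct 3 included, kept the calls of all 7 called genes.

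The promoters shown are those of *Acan*, which rose, of *Ncan* and *Hapln1*, which fell, and of *Vcan*, the neighbor of *Hapln1* in the genome. RefSeq's table for GRCm38.p6 holds a promoter for 8 of the 10 genes, each spanning 250 bases before and 50 after the start of transcription, and *Cspg5* and *Hapln4* are named only. Capitals mark GC boxes, the letters GGGCGG on either strand, and overlapping matches run together. *Acan* is at chr7:79052976-79053275 on the plus strand, *Ncan* at chr8:70120795-70121094 on the minus strand, *Vcan* at chr13:89742463-89742762 on the minus strand and *Hapln1* at chr13:89540386-89540685 on the plus strand.
Acan: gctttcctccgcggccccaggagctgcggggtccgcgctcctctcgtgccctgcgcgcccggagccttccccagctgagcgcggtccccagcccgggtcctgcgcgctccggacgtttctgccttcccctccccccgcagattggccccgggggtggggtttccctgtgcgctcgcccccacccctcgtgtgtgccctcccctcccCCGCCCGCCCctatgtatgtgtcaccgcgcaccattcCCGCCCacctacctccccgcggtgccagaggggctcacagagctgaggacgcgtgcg
Ncan: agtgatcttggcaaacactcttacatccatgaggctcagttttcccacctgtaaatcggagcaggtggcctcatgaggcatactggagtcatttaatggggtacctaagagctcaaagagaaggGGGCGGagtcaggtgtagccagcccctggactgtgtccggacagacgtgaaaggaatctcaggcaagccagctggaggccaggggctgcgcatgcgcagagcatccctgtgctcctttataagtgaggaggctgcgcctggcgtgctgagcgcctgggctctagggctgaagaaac
Vcan: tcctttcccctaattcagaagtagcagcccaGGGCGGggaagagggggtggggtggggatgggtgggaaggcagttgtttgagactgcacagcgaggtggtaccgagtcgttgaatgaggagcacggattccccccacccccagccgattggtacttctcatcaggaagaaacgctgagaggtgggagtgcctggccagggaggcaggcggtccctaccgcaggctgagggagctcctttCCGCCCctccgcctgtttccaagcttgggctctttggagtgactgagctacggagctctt
Hapln1: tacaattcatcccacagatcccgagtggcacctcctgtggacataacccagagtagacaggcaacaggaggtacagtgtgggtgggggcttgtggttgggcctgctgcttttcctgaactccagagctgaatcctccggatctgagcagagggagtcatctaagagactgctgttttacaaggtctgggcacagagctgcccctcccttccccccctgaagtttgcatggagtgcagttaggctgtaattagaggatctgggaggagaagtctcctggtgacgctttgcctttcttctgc
The window of *Acan*, the upregulated lectican, had 74.0% G and C and 31 CpG dinucleotides, compared with medians of 52.7% and 7 over the 32851 promoters of the table. That of *Hapln1* had 54.3% and 3, that of *Ncan* 56.7% and 9, and that of *Vcan* 61.0% and 12. A GC box was found in 6 of the 8 windows and in 35.7% of all promoters. There were 3 matches in *Acan*, 2 each in *Vcan*, *Cspg4*, and *Ptprz1*, 1 each in *Ncan* and *Bcan*, and 0 in *Hapln1* and *Tnr*. An E-box (CANNTG) was found in 3 of the 8 windows, those of *Acan*, *Ncan*, and *Vcan*, and in 72.3% of all promoters. A TATA box (TATAAA, either strand) was found in the window of *Ncan* only among the 8, and in 13.6% of all promoters. The letters TGANTCA and ACAATG, also searched on both strands, were found in 0 of the 8 windows, compared with 7.81% and 12.6% of all promoters. These matches describe the windows and say nothing about binding.

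Among the lecticans, *Acan* rose, *Ncan* fell, *Vcan* was higher by less than 2-fold and *Bcan* was lower by less than 2-fold. *Acan* (ENSMUSG00000030607, GRCm38 chromosome 7, 79053483 to 79115099, plus strand) encodes aggrecan, the lectican most closely tied to perineuronal nets. It had 18.2, 21 and 25.4 CPM in infarcts 1, 2 and 3 and 5.75, 8.40 and 7.01 CPM in the contralateral cortex 1, 2 and 3. Every infarct thus lay above every contralateral cortex, and the log2 fold change was 1.61 (SE 0.22, Benjamini-Hochberg adjusted *p* = 1.19e-04, quasi-likelihood test of edgeR). These values rest on 228 to 372 counts per infarct and 76 to 129 counts per contralateral cortex.

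*Ncan* (ENSMUSG00000002341, chromosome 8, 70093085 to 70120873, minus strand) encodes neurocan, which is secreted by neurons and astrocytes and is largely confined to the nervous system. It had 63.2, 79.5 and 119 CPM in infarcts 1, 2 and 3, and the contralateral cortices differed little among themselves, at 320, 316 and 318 CPM. The infarcts reached 27.5% of the contralateral mean, a log2 fold change of -1.86 (SE 0.22, adjusted *p* = 5.98e-05, edgeR).

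*Vcan* (ENSMUSG00000021614, chromosome 13, 89655312 to 89742509, minus strand) encodes versican, a lectican that fibroblasts and leukocytes can also produce. It had 34.9, 34.1 and 38.5 CPM in infarcts and 22.7, 20.1 and 17.9 CPM in the contralateral cortex, with no overlap. Its log2 fold change of 0.82 (SE 0.16, 95% interval 0.46 to 1.18, adjusted *p* = 0.00137, edgeR) was under the fold change threshold, and with scaling by library totals it was 1.02 and *Vcan* was called upregulated. The annotation lists 9 transcripts of *Vcan*, which counts per gene pool.

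*Bcan* (ENSMUSG00000004892, chromosome 3, 87987531 to 88000230, minus strand) encodes brevican, a small lectican found in the matrix around synapses and nodes of Ranvier. It had 87.4, 93.6 and 136 CPM in infarcts and 160, 147 and 139.5 CPM in the contralateral cortex, so infarct 3 lay just under the lowest contralateral cortex. The log2 fold change was -0.49 (SE 0.18, 95% interval -0.90 to -0.08, adjusted *p* = 0.0375, edgeR). Scaling by library totals gave -0.29 with an adjusted *p* of 0.223 (edgeR), and when single libraries were left out the adjusted *p* ranged from 0.0014 without infarct 3 to 0.142 without infarct 2 (edgeR).

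**Figure D2:**
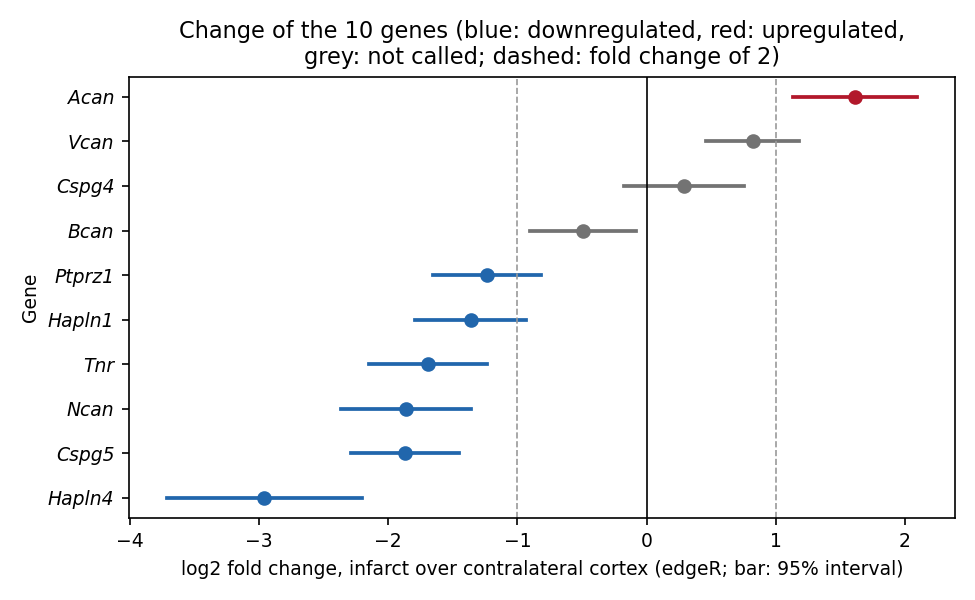
Fitted log2 fold change of each gene (infarct over contralateral cortex, edgeR) with its 95% interval and dashed lines at a fold change of 2. Values run from -2.96 for *Hapln4* to 1.61 for *Acan*, and only the interval of *Cspg4* includes 0.

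To ask whether the lecticans kept their proportions, their CPM was divided by the length of the merged exons in kilobases, and each gene was expressed as a share of the sum of the 4 lecticans within a library. The sum was 35.1, 39.2 and 56.1 CPM per kb in infarcts 1, 2 and 3 and 86.1, 82.6 and 80.8 CPM per kb in contralateral cortices, and the infarct mean was 52.3% of the contralateral mean. *Ncan* made up 25.0%, 28.2% and 29.6% of the sum in infarcts and 51.6%, 53.2% and 54.8% in contralateral cortices. The share of *Bcan* was 61.2%, 58.7% and 59.6% in infarcts and 45.6%, 43.8% and 42.5% in contralateral cortices. *Acan* accounted for 6.72% ± 0.58 (SD, n = 3) of the sum in infarcts and 1.14% ± 0.24 in contralateral cortices, and *Vcan* for 5.88% ± 1.07 and 1.68% ± 0.15.

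All 4 shares were free of overlap between regions. The difference in share, infarct minus contralateral, was -25.6 percentage points for *Ncan* (SE 1.63), 15.9 for *Bcan* (SE 1.17), 5.58 for *Acan* (SE 0.36) and 4.20 for *Vcan* (SE 0.62). Each gave *p* = 0.1 in a two-sided exact permutation test (adjusted *p* = 0.1 over the 4 genes), the smallest value that 3 against 3 samples allow. Shares within a library do not depend on how libraries are scaled, but they do depend on gene length. With the longest transcript as the length, *Bcan* rather than *Ncan* was the largest lectican in contralateral cortices, at 50.2% ± 1.57 compared with 47.0% ± 1.58 (SD, n = 3), and all 4 shares were again free of overlap.

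**Figure D3:**
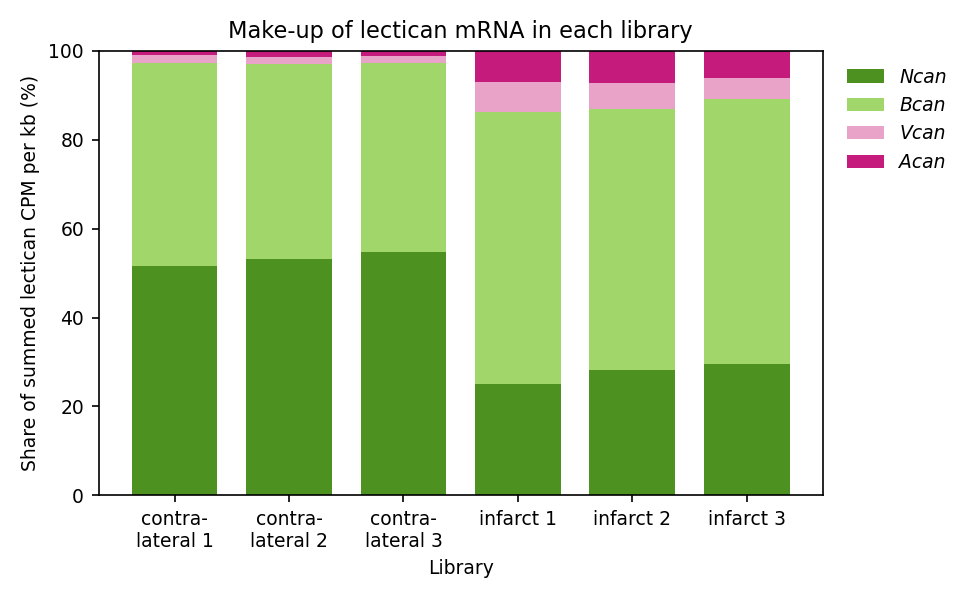
Share of each lectican in the summed lectican CPM per kb (percent, vertical axis) in each of the 6 libraries. *Ncan* takes 51.6% to 54.8% of the contralateral bars and 25.0% to 29.6% of the infarct bars, where *Bcan*, *Vcan*, and *Acan* take larger shares.

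Both link proteins fell, *Hapln4* most of all 10 genes. *Hapln4* (ENSMUSG00000007594, chromosome 8, 70083457 to 70090862, plus strand) encodes a link protein of nets and of the matrix around nodes of Ranvier, made by neurons. It had 11.8, 15.4 and 28.2 CPM in infarcts 1, 2 and 3 and 119, 141 and 173 CPM in the contralateral cortex. Infarcts reached 12.8% of the contralateral mean, and the log2 fold change was -2.96 (SE 0.33, adjusted *p* = 8.41e-05, edgeR). Between infarcts it varied most among the 10 genes, with a coefficient of variation of 46.8%. *Hapln1* (ENSMUSG00000021613, chromosome 13, 89539796 to 89611652, plus strand) encodes the widely expressed link protein whose loss in the CNS is known to weaken nets. It had 17.3, 26.3 and 26.8 CPM in infarcts and 63.9, 58.4 and 58.3 CPM in the contralateral cortex, a log2 fold change of -1.36 (SE 0.19, adjusted *p* = 1.70e-04, edgeR). The log2 ratio of *Hapln1* to *Hapln4*, chosen after their values were seen, was -0.04, 0.19 and -0.66 in infarcts and -1.48, -1.86 and -2.16 in contralateral cortices, which did not overlap.

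Each lectican gene lies beside a link protein gene in the mouse genome, and in all 4 pairs the annotation has 0 protein-coding genes in between. *Hapln1* and *Vcan* are 43659 bases apart, *Hapln2* and *Bcan* 21519 bases, *Hapln4* and *Ncan* 2222 bases and *Hapln3* and *Acan*, whose 3' ends face each other, 2 bases. The neighbors did not change alike for *Hapln1* and *Vcan* or for *Hapln4* and *Ncan*. The log2 ratio of *Hapln1* to *Vcan*, in CPM per kb, was 0.28, 0.92 and 0.77 in infarcts and 2.79, 2.83 and 3.00 in contralateral cortices, a difference of -2.22 (SE 0.20). *Hapln1* fell while every infarct had more *Vcan* than every contralateral cortex. For *Hapln4* over *Ncan*, the log2 ratio was -1.55, -1.50 and -1.21 in infarcts and -0.56, -0.29 and -0.01 in contralateral cortices, a difference of -1.13 (SE 0.19), so the link protein was reduced further than its neighboring lectican. Both differences gave *p* = 0.1 in the two-sided exact permutation test, the smallest it allows (adjusted *p* = 0.133 over 4 ratios). The adjustment includes the ratio of *Hapln1* to *Hapln4*. Its difference was 1.66 (SE 0.32), and since it was chosen after its values were seen, a *p* value cannot be read for it.

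*Hapln2*, a link protein of myelinated axons, had 1.51, 3.67 and 3.89 CPM in infarcts and 3.60, 3.00 and 2.03 CPM in the contralateral cortex. Its log2 fold change was 0.06 (95% interval -0.83 to 0.96, adjusted *p* = 0.90, edgeR), and its ratio to *Bcan* overlapped between regions (difference 0.51, SE 0.39, exact permutation *p* = 0.3). *Hapln3* did not pass the filter, with 11, 7 and 7 counts in infarcts and 8, 3 and 5 in contralateral cortices, so its ratio to *Acan* was not computed. Fitted without the filter, its log2 fold change was 0.81 (SE 0.75, adjusted *p* = 0.417, edgeR).

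**Figure D4:**
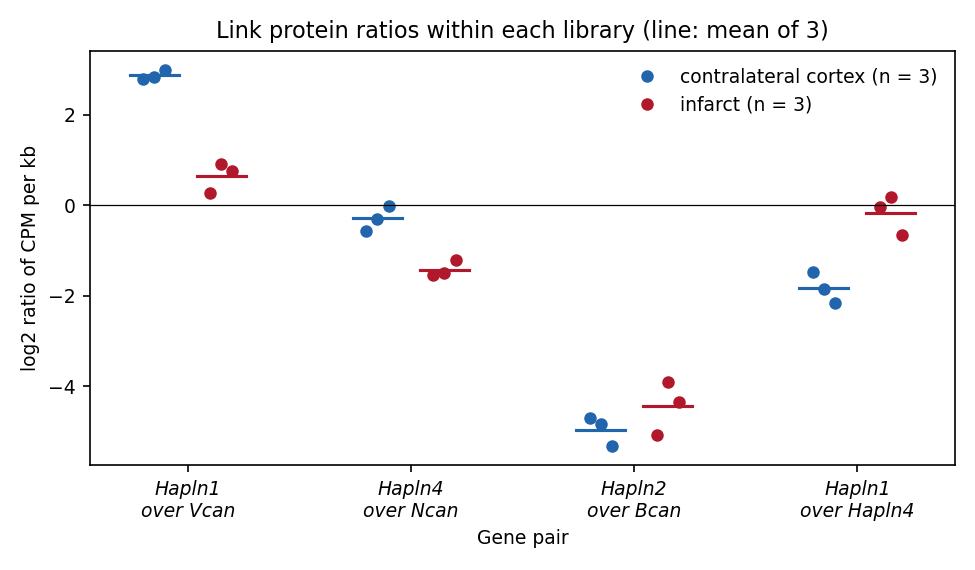
The log2 ratio of CPM per kb for 3 neighboring pairs of link protein and lectican and for *Hapln1* over *Hapln4*, in each library (blue, contralateral; red, infarct; line, mean). The first, second and last ratios do not overlap between regions, and *Hapln2* over *Bcan* does.

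*Tnr* (ENSMUSG00000015829, chromosome 1, 159523769 to 159931729, plus strand) encodes tenascin-R, which crosslinks lecticans in nets and is made by oligodendrocytes and some neurons. It had 94.95, 97.0 and 151.5 CPM in infarcts 1, 2 and 3 and 394, 372 and 345 CPM in the contralateral cortex. All infarcts lay far below all contralateral cortices, and the log2 fold change was -1.69 (SE 0.20, adjusted *p* = 5.98e-05, edgeR). Exons of the gene *Gm38039* on the other strand cover 3.44% of its exon bases. The other tested tenascins moved the opposite way. *Tnc*, which encodes the tenascin of wounds and of reactive glia, had 50.04 ± 2.0 CPM in infarcts and 3.83 ± 0.74 CPM in the contralateral cortex (SD, n = 3), a log2 fold change of 3.70, and *Tnxb*, the tenascin of connective tissue, had one of 3.52 (adjusted *p* = 4.07e-07 and 4.96e-07, edgeR). *Tnn* did not pass the filter on low counts.

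The remaining 3 core proteins sit mostly at the cell surface. *Cspg5* (ENSMUSG00000032482, chromosome 9, 110243783 to 110262576, plus strand) encodes neuroglycan C, a transmembrane proteoglycan of the nervous system. It had 69.8, 65.6 and 99.9 CPM in infarcts and 267, 287 and 306 CPM in the contralateral cortex, a log2 fold change of -1.87 (SE 0.19, adjusted *p* = 1.80e-05, edgeR). That was the smallest *p* among the 10 genes. *Ptprz1* (ENSMUSG00000068748, chromosome 6, 22875502 to 23052916, plus strand) encodes a receptor tyrosine phosphatase of astrocytes and oligodendrocyte precursors, and its secreted form, phosphacan, belongs to the net. It had 196, 245.5 and 307 CPM in infarcts and 604.5, 590 and 568.5 CPM in the contralateral cortex. The log2 fold change was -1.24 (SE 0.19, adjusted *p* = 2.58e-04, edgeR), and in the glmTreat test of a change beyond 2-fold its adjusted *p* was 0.095 (edgeR). Counts per gene do not separate the receptor from phosphacan.

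*Cspg4* (ENSMUSG00000032911, chromosome 9, 56865033 to 56899870, plus strand) encodes NG2, the proteoglycan that marks oligodendrocyte precursors and pericytes. It had 21.4, 26.0 and 28.4 CPM in infarcts and 23.5, 15.4 and 23.3 CPM in the contralateral cortex, and the regions overlapped. The log2 fold change of 0.29 had a 95% interval of -0.18 to 0.75 (adjusted *p* = 0.248, edgeR). Beside it, the precursor marker *Olig2* had a log2 fold change of -0.73 (adjusted *p* = 0.0693, edgeR) and *Matn4* one of 3.18. *Pdgfra*, which precursors share with fibroblasts, had one of 1.90. Among pericyte genes the values ran from 0.23 for *Abcc9*, which was not called, to 5.75 for *Anpep*, which macrophages and fibroblasts also express.

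Levels of different genes were compared per kilobase of merged exons. In contralateral cortices *Ncan* had the highest mean, 44.2 ± 0.28 CPM per kb (SD, n = 3). *Ptprz1* followed at 41.2 ± 1.27, *Hapln4* at 36.7 ± 6.97 and *Bcan* at 36.6 ± 2.5. *Hapln4* overlapped with *Ptprz1* and with *Bcan*, and at 44.07 CPM per kb in contralateral cortex 3 it also lay within the range of *Ncan*. *Tnr* and *Cspg5*, at 28.8 ± 1.90 and 28.4 ± 1.94, did not differ beyond their spread, and *Hapln1* followed at 10.2 ± 0.54. *Cspg4* (1.74 ± 0.38) overlapped with *Vcan* (1.40 ± 0.17), and *Acan* was lowest at 0.94 ± 0.18. In infarcts the order began with *Bcan* at 26.0 ± 6.52, *Ptprz1* at 17.5 ± 3.89 and *Ncan* at 12.1 ± 4.02, and ended with *Acan* at 2.88 ± 0.49, *Vcan* at 2.48 ± 0.16 and *Cspg4* at 2.12 ± 0.30. All 9 neighbors in that order overlapped. The range between the highest and the lowest gene was thus narrower in infarcts. With the longest transcript as the length, *Ptprz1* was highest in contralateral cortices at 72.8 CPM per kb, ahead of *Bcan* at 47.3 and *Ncan* at 44.2. The order in infarcts then ended with *Cspg4* at 3.11, *Acan* at 2.925 and *Vcan* at 2.88. The top in contralateral cortices and the bottom in infarcts thus rest on the length used.

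By root mean square difference over the 6 libraries, on log2 CPM centered on the contralateral mean, the genes nearest to *Acan* among all tested genes were *Mobp* (0.12), *Aldh1a1* (0.12), and *Adamts4* (0.12). *Mobp* encodes a myelin protein, *Aldh1a1* an enzyme of retinoic acid synthesis, and *Adamts4* a protease known as aggrecanase 1. Their log2 fold changes were 1.60, 1.52 and 1.45. Values close to that of *Acan* follow from how these genes were picked, and a link between them and *Acan* was not tested.

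Around these genes, lists of enzymes, partners and receptors of the same pathway were examined for how many genes passed the thresholds. Each count stands beside 25.7% upregulated and 20.9% downregulated among all tested genes, whose median log2 fold change was 0.03. Of 10 proteases listed as cutting lecticans, 8 were upregulated, with a median log2 fold change of 3.23. *Mmp3* and *Mmp2* had the largest values, 10.60 and 5.98, but *Mmp3* had 0, 1 and 11 counts in contralateral cortices. Among the ADAMTS proteases, *Adamts15* had 3.60, *Adamts9* 3.34, *Adamts5* 3.12, *Adamts1* 2.90 and *Adamts4* 1.45. *Adamts8* (-0.77, adjusted *p* = 0.161, edgeR) and *Adamts20* (0.25, adjusted *p* = 0.610, edgeR) were not called.

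Hyaluronan is the thread to which lecticans bind. Of 12 tested genes for its synthesis, binding and breakdown, 10 were upregulated and none downregulated (1 downregulated without infarct 3 or without contralateral cortex 1), with a median of 2.12. With at least 10 counts required in every sample, 6 were upregulated. *Cd44*, the main hyaluronan receptor, had 289 ± 21.5 CPM in infarcts and 6.43 ± 1.0 CPM in the contralateral cortex (SD, n = 3), a log2 fold change of 5.49. The endocytic receptors *Stab2* and *Stab1* followed with 4.62 and 3.57. Counts in contralateral cortices 1, 2 and 3 were low for *Stab2* (6, 8 and 10) and for the synthase *Has2* (14, 15 and 5). Among the synthases, *Has2* rose by 3.24 on the log2 scale, *Has3* had a log2 fold change of -0.88 and was not called (adjusted *p* = 0.0296, edgeR), and *Has1* did not pass the filter. The hyaluronan-degrading proteins *Cemip*, *Cemip2*, and *Hyal1* rose by 2.77, 1.64 and 2.15.

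Of 17 genes that build the chondroitin chain, 5 were up and 3 down, with a median of 0.15. These counts and this median were near those of all tested genes (25.7% up, 20.9% down, median 0.03). *Chsy1*, a chain polymerase, rose by 2.21 and its homolog *Chsy3* fell by 2.48 on the log2 scale. *Papss2*, which makes the sulfate donor, rose by 2.11, *B3gat3*, which completes the linkage region, fell by 1.53 and *Csgalnact1*, which starts the chain, fell by 1.11. *Csgalnact2*, the paralog of *Csgalnact1*, rose by 1.40. Of the 9 tested sulfotransferases and epimerases, 6 were upregulated and none downregulated, with a median of 1.20. *Dse*, the epimerase that turns chondroitin into dermatan, rose by 4.03 and *Chst14*, which sulfates dermatan, rose by 3.65. In contralateral cortices 1, 2 and 3, however, *Chst14* had only 22, 2 and 9 counts. *Chst3*, which adds sulfate at the C6 position, had 13.1 ± 4.84 CPM in infarcts and 1.87 ± 0.22 CPM in the contralateral cortex (SD, n = 3), a log2 fold change of 2.82. *Chst11*, which adds it at C4, had 190 ± 2.01 and 75.3 ± 2.09 CPM, a log2 fold change of 1.34.

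Of 11 lysosomal genes, 9 were upregulated and 1 was downregulated, with a median of 2.42. *Gusb* and *Hexa*, which remove sugars from the end of the chain, rose by 4.29 and 3.48, and *Galns*, a sulfatase, rose by 3.27. *Ids*, which acts on dermatan and heparan sulfate, fell by 1.87. Among the genes that rose, *Sgsh* acts on heparan sulfate and *Glb1* on keratan sulfate and other sugars, rather than on chondroitin. The summed expression of the list nevertheless overlapped, at 2288 to 2707 CPM in infarcts and 2435 to 2506 CPM in the contralateral cortex, where *Ids* alone had 2113 ± 51.9 CPM (SD, n = 3). Beside these counts, 8 of 9 genes of microglia and macrophages were also upregulated, with a summed expression of 1482 to 1832 CPM in infarcts and 280 to 363 CPM in the contralateral cortex, and their part in the lysosomal list was not tested.

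In a list of 5 chondroitin sulfate receptors and relatives, 3 were downregulated and none upregulated, with a median of -1.81. Among them *Rtn4rl2* is a Nogo receptor homolog that is not known to bind chondroitin sulfate, and of the other 4 genes 2 were downregulated. *Rtn4r*, the Nogo receptor, fell by 3.25, *Rtn4rl2* by 2.65 and *Rtn4rl1* by 1.81. The receptor phosphatases *Ptprs* (-0.96, adjusted *p* = 0.0040, edgeR) and *Ptprf* (0.07, 95% interval -0.33 to 0.46) were not called. Among 9 tested ligands and partners, 5 were downregulated and 1 was upregulated, with a median of -2.10. *Nptx2* and *Nptx1*, neuronal pentraxins, fell by 2.73 and 2.62, and *Cntn1*, a neuronal ligand of *Ptprz1*, fell by 2.38. *Mdk*, a growth factor that binds *Ptprz1*, rose by 2.83, whereas its relative *Ptn* did not differ detectably (0.16, 95% interval -0.32 to 0.63). *Sema3a*, which nets bind, had a log2 fold change of -0.92 (adjusted *p* = 0.0111, edgeR) and was not called.

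Other proteins that can carry chondroitin or dermatan sulfate mostly rose, 10 of 15, and 3 fell, with a median of 3.50. *Cd74*, the invariant chain of MHC class II, and *Dcn*, the small proteoglycan decorin, rose by 7.86 and 6.43 on the log2 scale. *Bgn* rose by 4.87 and *Srgn*, the proteoglycan of leukocyte granules, by 4.44. The genes that fell were the testicans *Spock1* (-2.74), *Spock3* (-2.08), and *Spock2* (-2.01), which are brain proteoglycans. *Dcn* had 1229 ± 284 CPM in infarcts and 14.3 ± 3.86 CPM in the contralateral cortex, and *Spock1* had 92.5 ± 41.5 and 618.5 ± 41.1 CPM (SD, n = 3). Fibroblast genes, summed, were at 6034 to 7463 CPM in infarcts and 143 to 177 CPM in the contralateral cortex, and their part in these changes was not tested.

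**Figure D5:**
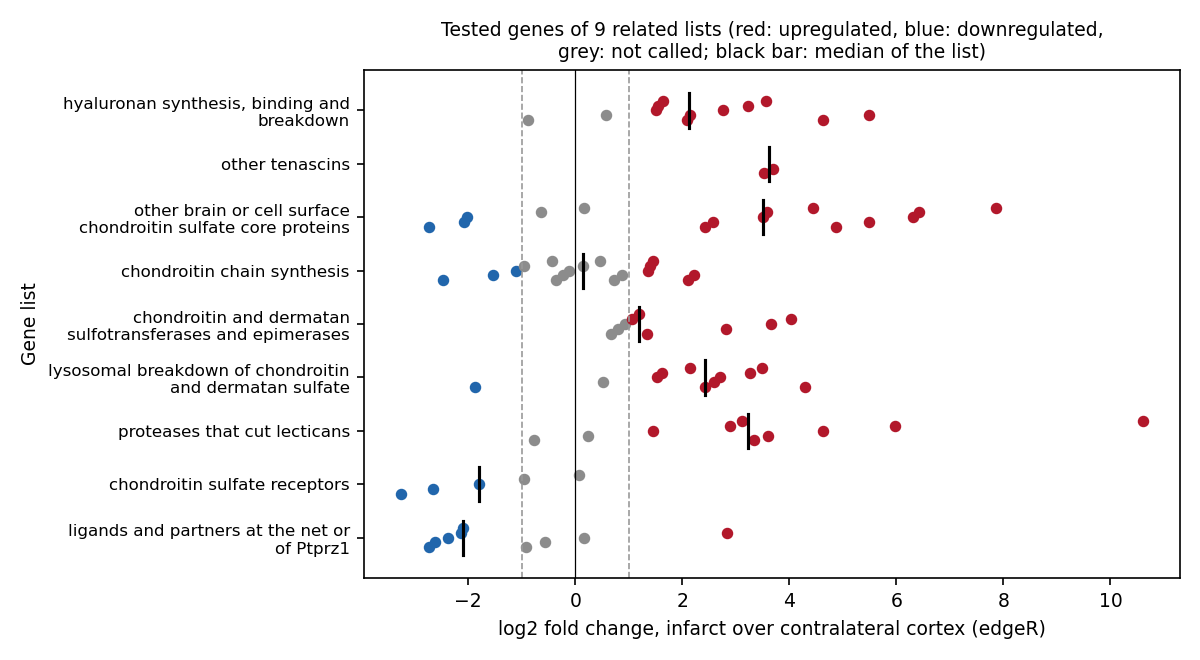
Fitted log2 fold change (horizontal axis) of every tested gene in 9 related lists, colored by its call, with a black bar at the median of each list and dashed lines at a fold change of 2. Medians run from -2.10 for ligands and partners to 3.61 for the 2 tested tenascins other than *Tnr*.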

How the data were processed

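RNA-Seq was analyzed from 3 infarcts and 3 contralateral cortices. Per the paper's methods and the labels, the authors made stranded mRNA libraries and deposited raw counts per Ensembl gene. The submitters' processing notes name Trimmomatic 0.32, STAR 2.5.2b, HTSeq and GRCm38, and the annotation and strand setting are not given in the sources used here. Gene counts totaled 11943570 to 19933962 per library, or 65.7% to 73.4% of tallied reads, and 5 summary entries without a gene were left out.

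The test was that of edgeR 4.0.16 under R 4.3.3 (filterByExpr, TMM scaling, robust quasi-likelihood test over 15554 genes, Benjamini-Hochberg adjustment). Calls need a fold change above 2 at an adjusted *p* under 0.05, the thresholds of the study. Scaling by library totals moves the median change over all genes by 0.20 (log2), so changes are relative to TMM. CPM per kb divides by merged exons of GENCODE M21. Identifiers matched for 45229 genes and not for 849, which stayed in the tests. Shares and ratios were compared by exact permutation tests.

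The members and lists were chosen with earlier results of these data known. Named genes are the 10 members, *Hapln2* and *Hapln3*, the genes of each list (always the 2 largest changes per direction), the extreme genes of each cell type list and the 3 genes nearest to *Acan*. *Cd44*, *Hyal1*, and *Pdgfra* each stand in 2 lists. The alternatives were DESeq2 1.42.0, RLE or library total scaling, other filters and fold thresholds, a replicate block, another gene length, unscaled counts and each library left out. The procedure was tested on simulated counts in which few genes changed, equally many up and down. That simulation cannot test the scaling where many genes differ, as they do here. Plots were drawn with matplotlib 3.10.9. Protein sequences were not used here.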

Additional observations from a re-analysis of the deposited data

How the results depend on the processing

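All 10 members kept the direction of their log2 fold change under every alternative tried, and *Hapln2*, which is no member, changed sign without infarct 2 (-0.08), without infarct 3 (-0.15) and without contralateral cortex 3 (-0.12), in a range up to 0.39. Among members, 1 was upregulated and 6 were downregulated, with each library left out in turn as well. The number upregulated was 2 with library totals, where *Vcan* passed 2-fold, and 2 with no fold change threshold. Without that threshold *Bcan* also passed, as lower, and against a fold change of 2 *Ptprz1* lost its call. For *Acan*, the share in summed lecticans differed by 4.72 percentage points with the longest transcript and by 7.26 with unscaled counts, and with unscaled counts the differences were 12.1 for *Bcan*, -29.98 for *Ncan* and 10.6 for *Vcan*, since each gene is then weighted by its length. The sum of astrocyte markers was lower in infarcts by a difference of -7678 CPM and higher by 1686 CPM when *Slc1a2* was omitted, an alternative chosen after seeing the data, like the omission of *Rtn4rl2*. Against a fold change of 2, upregulated genes numbered 2 in the oligodendrocyte list and 3 in the list of pericytes and smooth muscle, and with no threshold 8 in the oligodendrocyte list and 8 in chain synthesis. The replicate block, which adds the libraries' numbers to the model, left the members at 1 upregulated and 6 downregulated (*Acan* 1.61, *Hapln4* -3.04) and gave 2 downregulated astrocyte markers. Deviations of same-numbered libraries from their region means correlated at -0.19, 0.10 and 0.0011, and no infarct correlated best with the contralateral cortex of its own number. With 3 libraries per region, these correlations cannot decide whether same-numbered libraries share a mouse. The labels do not say so either, and the numbers were not taken as pairs. Depth limits *Acan*, at 76 counts in the thinnest library, and *Hapln3*, which the filter on low counts left out. Intervals describe the spread between 3 libraries per region, and the reads carry no molecular identifiers, so they are not independent molecules.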
